A study of Mus musculus with 96 samples.

Results

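Expression of 9 genes was followed in mouse liver across 6 doses of PB, 2 days and both sexes: Nebl, Pnliprp1, Smpx, Moxd1, Gm10419, Kcnk1, Meig1, Cnmd and Prom1. They are 9 of the 18193 genes measured, and they were picked by name because they were higher at the highest dose although none is a known drug-metabolising enzyme. Liver RNA of CD-1 mice, an outbred stock, was hybridised to 96 expression arrays, with 4 arrays for each of 24 groups. The groups cross sex (female or male), length of dietary exposure (2 or 7 days) and dose (150, 75, 15, 1.5 and 0.15 mg/kg-day of PB, and dose 0). That unit comes from the design text, whereas ppm stands in the sample titles, and the files do not settle which is right. The labels do not expand PB, which in work on the receptor CAR commonly stands for phenobarbital. The labels name no genetic change in any group and leave unsaid whether arrays come from different mice, so every p-value measures the spread between these samples, which may be technical.

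CAR, the constitutive androstane receptor, is a nuclear receptor of hepatocytes. Phenobarbital activates it indirectly, and the receptor then binds DNA with its partner RXR and raises transcription of cytochrome P450 and conjugation genes. In rodents, continued activation is known for liver growth and, later, liver tumours. The 9 genes are best known from other settings. Nebl encodes nebulette, an actin-binding protein of the cardiac Z-disc, and Smpx encodes a small protein of striated muscle. Pnliprp1 encodes a relative of pancreatic lipase, and Moxd1 a relative of the monooxygenase that makes noradrenaline. Kcnk1 encodes a potassium channel with paired pore domains. Gm10419 is annotated as a long non-coding RNA. Meig1 is needed for the formation of sperm, Cnmd encodes chondromodulin, a cartilage protein that inhibits vessel growth, and Prom1 encodes prominin, a membrane protein of cell protrusions that is also used as a marker of progenitor cells.

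The values that chose the genes were those at dose 150 against dose 0. They are given as a description, without a test. The tests compared the means of other arrays: dose 75 or dose 15 against the 8 arrays at 0.15 and 1.5 of the same sex and day, called the low doses here. These tests came from a limma fit to all 96 arrays with Benjamini-Hochberg adjustment over all 18193 genes. Their estimate of the spread draws on all 24 groups, so the tests are not fully independent of the arrays at 150 and 0. A wide group at 150, such as that of Smpx, Moxd1 or Kcnk1 in males on day 7, raises that estimate. A gene is called higher, or is said to have risen, where its adjusted p was under 0.05, and SE stands for the standard error that limma gives a log2 difference.

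The label under which the genes were grouped, a late rise at high dose, held in part. At 150, Cnmd was about as far above dose 0 on day 2, or farther (by 3.57 in males and 3.08 in females, on the log2 scale) as on day 7 (3.72 and 2.29), and Prom1 was already higher by 2.33 and 1.60 on day 2. The other 7 had larger differences on day 7 than on day 2 in males. In females only Nebl, Pnliprp1, Cnmd and Prom1 differed from dose 0 by more than 1 at 150 on day 7. All 9 genes were higher at 150 than at 0 in males on day 7, with no overlap between the 4 treated arrays and the 4 controls, which was true of 5.13% of all genes. Without overlap, 3 genes were higher in females on day 2 (4.54% of all genes), 6 in females on day 7 (4.31%) and 7 in males on day 2 (4.26%). Because this contrast chose the genes, these counts support nothing by themselves.

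**Figure D1:**
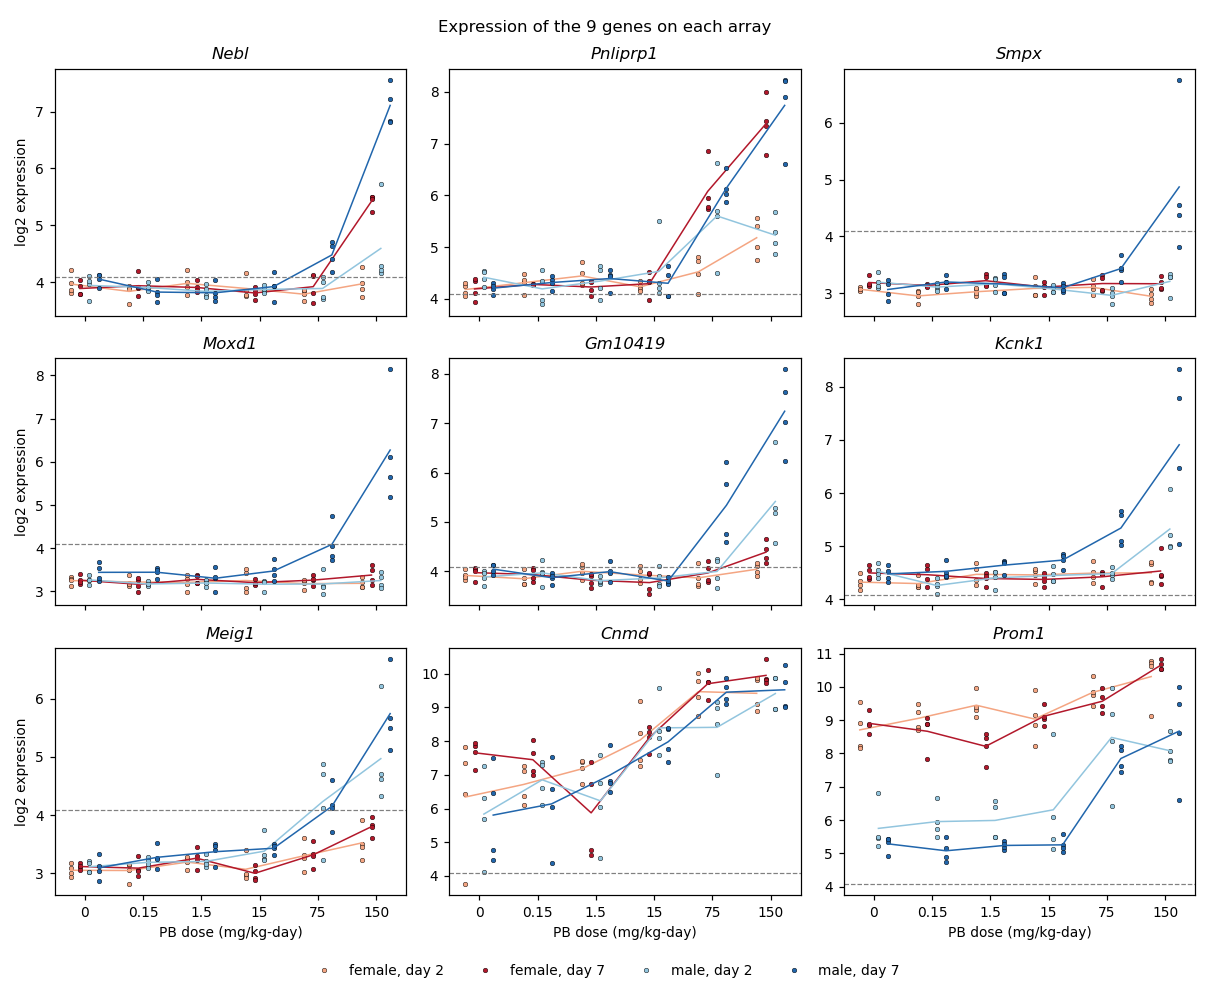
Log2 expression of the 9 genes (y axes, each panel with its own range) against PB dose in mg/kg-day (x axis, evenly spaced categories). Points are arrays, lines join the means of the 4 arrays of a group, colours give sex and day, and the dashed line is the background limit of 4.09. Most genes lie flat up to dose 15 and leave that level at 75 or 150, most of them in males on day 7, whereas the means of Cnmd at 15 are above those at 0.15 and 1.5 in all 4 series.

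Levels at the start fell into 3 kinds. The lower quartile of the arrays lay between 3.91 and 4.09, and the higher value was taken as the limit below which a gene is not shown to be above background. Nebl, Smpx, Moxd1, Gm10419 and Meig1 had the means of all 4 dose 0 groups at or below that limit, so a difference from such a start is a lower bound. The words "at least" mark this limit only, and such a difference still carries the error of its estimate. Pnliprp1 (dose 0 means of 4.18 to 4.42) and Kcnk1 (4.33 to 4.53) started just above it, so their differences and folds may be too small as well. Cnmd (5.81 to 7.66) and Prom1 (5.29 to 8.90) were expressed without PB. The limit is the same for every probe set, and levels of different genes are not compared.

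The number of genes called at dose 75 was largest in males on day 7. In males on day 7, 6 of the 9 were called higher than at the low doses (limma), against 0.302% of all genes. They were Nebl, Pnliprp1, Gm10419, Meig1, Cnmd and Prom1. In males on day 2, 3 were called higher (Pnliprp1, Meig1 and Prom1; 0.39% of all genes). In females, 2 were called higher on day 7 (Pnliprp1 and Cnmd; 0.275% of all genes) and 1 on day 2 (Cnmd; 1.25% of all genes). Without both arrays named below that went against their labels, Cnmd was called as well in males on day 2, which made 4 of 9 against 0.654% of all genes. The median difference over the 9 genes was 0.83 in males on day 7, 0.15 in males on day 2 (0.22 without both arrays), 0.09 in females on day 7 and 0.11 in females on day 2, beside medians of all genes close to 0.

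At dose 15 none of the 9 was called higher in limma's test in either sex on either day, against 0.0165% and 0.011% of all genes in females on days 2 and 7 and 0.044% and 0.011% in males. At an unadjusted p under 0.05 only Cnmd stood above the low doses, and it did so in all 4 series. Without both arrays, Prom1 joined it in females on day 7. Against dose 0, the difference of Cnmd at 15 in females on day 7 was 0.45 (limma, unadjusted p 0.454). Of the doses tested against the low doses, 15 and 75, only 75 gave calls.

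**Figure D2:**
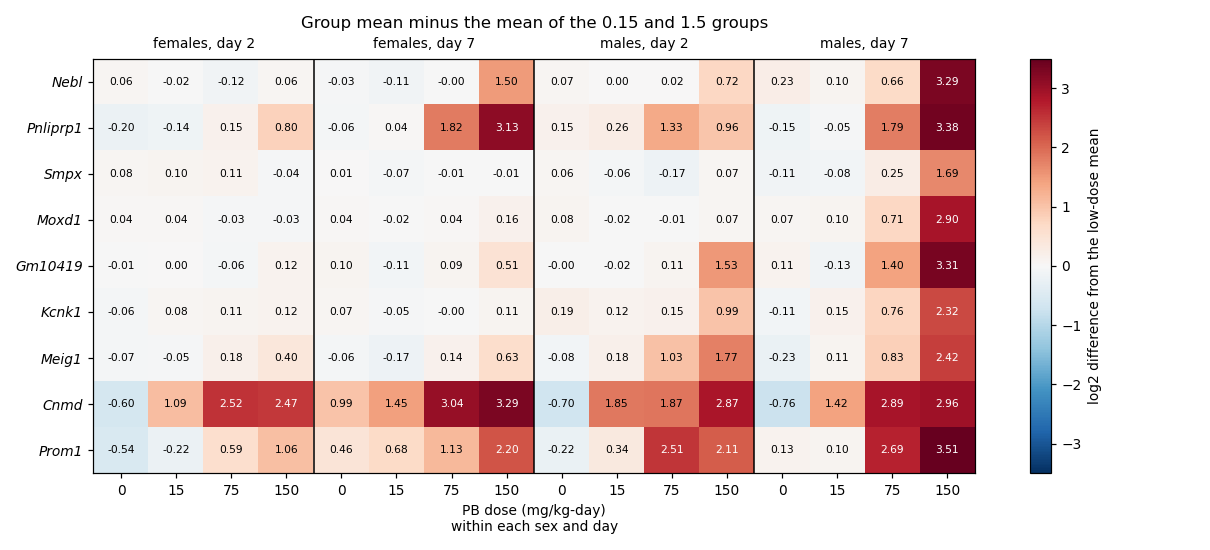
Difference in log2 expression between a group mean and the mean of the 0.15 and 1.5 groups of the same sex and day, for the 9 genes (rows) at doses 0, 15, 75 and 150 (columns, in blocks by sex and day). The right block, males on day 7, has the most dark cells, and Cnmd alone is above 1 at dose 15, in all 4 blocks.

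Before the results by gene, 2 arrays need naming. In males on day 2, replicate 1 at dose 15 and replicate 1 at dose 75 went against their labels for Cyp2b10, the P450 gene most used as a readout of CAR. Cyp2b10 was 13.66 on the former, against 11.07 to 11.29 on the other 3 arrays of dose 15, and 10.98 on the latter, against 13.19 to 13.36 on the other 3 of dose 75. Cyp2c55, another P450 gene, was 13.01 on the former, against 8.888 to 10.14, and 9.815 on the latter, against 12.54 to 12.74. For both genes each array thus read nearer to the other's dose. Whether the 2 arrays were exchanged was not tested. They are kept as labelled, and the calls, counts and correlations that include them are also given without both where they change.

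Promoter sequences are shown for 4 genes, for the reason given with each. They are the 250 bases before the annotated start, 5′ to 3′ on the gene's strand, from RefSeq with GRCm38.p6 coordinates. Capitals mark a hexamer AGGTCA or AGTTCA on either strand, the half-site that CAR and RXR read in pairs. Smpx (chrX:157698723-157698972 on the plus strand) and Moxd1 (chr10:24223267-24223516 on the plus strand) are shown because their group means were the most alike of all pairs. Gm10419 (chr5:108367687-108367936 on the plus strand) is shown for its base composition. Cnmd (chr14:79662184-79662433 on the minus strand) is shown because it alone had an unadjusted p under 0.05 at dose 15 against the low doses in all 4 series.
Smpx: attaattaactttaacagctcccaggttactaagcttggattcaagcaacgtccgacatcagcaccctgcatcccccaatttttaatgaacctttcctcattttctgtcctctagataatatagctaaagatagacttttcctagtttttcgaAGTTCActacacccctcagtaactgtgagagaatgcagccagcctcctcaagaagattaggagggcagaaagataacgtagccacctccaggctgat
Moxd1: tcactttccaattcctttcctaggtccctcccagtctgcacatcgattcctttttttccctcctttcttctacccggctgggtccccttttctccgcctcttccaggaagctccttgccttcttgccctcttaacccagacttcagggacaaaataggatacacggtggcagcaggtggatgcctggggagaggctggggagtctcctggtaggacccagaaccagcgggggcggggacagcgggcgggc
Gm10419: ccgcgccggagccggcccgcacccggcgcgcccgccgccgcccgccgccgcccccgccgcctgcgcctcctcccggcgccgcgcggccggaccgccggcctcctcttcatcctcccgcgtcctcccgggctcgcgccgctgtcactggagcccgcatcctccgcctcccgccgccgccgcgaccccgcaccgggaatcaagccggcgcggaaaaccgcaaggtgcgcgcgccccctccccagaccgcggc
Cnmd: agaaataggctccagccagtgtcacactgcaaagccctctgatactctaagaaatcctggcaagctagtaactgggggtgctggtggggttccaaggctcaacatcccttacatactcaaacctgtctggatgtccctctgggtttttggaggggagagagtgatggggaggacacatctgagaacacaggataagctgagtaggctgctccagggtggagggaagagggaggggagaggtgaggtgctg
The table of RefSeq promoters held 15 annotated starts for all 9 genes, each as a window of 300 bases, 250 before the start and 50 after it. A pair of half-sites in the same direction with a spacing of 4 bases (DR4, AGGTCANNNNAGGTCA with either hexamer at either place, both strands) was found in 0 of these 15 windows and in 9 of all 32851, which is 0.0274%. A single half-site AGGTCA or AGTTCA was found in 5 of the 15, at starts of Nebl, Smpx and Meig1, and in 27.7% of all windows. The DR4 motif contains the half-site. The window of Gm10419 was 84% G and C, against a median of 52.7% over all windows, and held 60 CG pairs, against a median of 7. Smpx and Moxd1, whose group means were alike mainly through males at 150 on day 7, were at 45.3% and 61.7%. These are matches of letters only, and enhancers farther from the start were not searched.

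Nebl and Smpx, best known from muscle, started at background. Nebl lies at chr2:17342673-17734949 (GRCm38.p6). The 4 arrays of males at dose 0 on day 7 read 4.13, 4.13, 4.06 and 3.90, and those at dose 150 read 7.56, 6.83, 6.82 and 7.23. The difference was at least 3.05 on the log2 scale, and the treated arrays lay close together (SD 0.36). At dose 75 in the same series Nebl read 4.70, 4.41, 4.18 and 4.63, all above the low doses (lowest 3.65, median 3.79, highest 4.06). It rose there by at least 0.66 ± 0.14 (SE), or 1.58-fold, with an adjusted p of 0.00509. That call rested on single arrays, since the adjusted p was 0.0872 without replicate 1 at dose 75 and 0.0655 without replicate 4. It was also lost against dose 0 (difference 0.42, adjusted p 0.376) and with the mean of all its probe sets (adjusted p 0.27).

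Females on day 7 gave a tight group for Nebl at 150, with 5.50, 5.24, 5.50 and 5.46 against 3.93, 3.79, 4.03 and 3.80 at dose 0. That is a difference of at least 1.53, with the groups well apart, and nothing at 75 (difference -0.00 from the low doses, adjusted p 0.999). In females on day 2 the means at 0 and 150 were both 3.97. Males at 150 on day 2 read 4.17, 4.28, 4.21 and 5.72, so that replicate 4 alone carried most of the mean difference of 0.65.

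Smpx (chrX:157698973-157752591) left the background in a single group. It stayed between 2.80 and 3.68 on every array outside males at 150 on day 7. There it read 6.76, 4.37, 4.55 and 3.81, so that replicate 1 stood far above the others and replicate 4 was below the background limit. The dose 0 arrays read 3.16, 2.87, 2.99 and 3.24. The groups did not overlap, and the mean difference of at least 1.81 had an SD of 1.297 among the treated arrays. At 75 the difference from the low doses was 0.25 ± 0.17 (SE) with an adjusted p of 0.795, and both means lay below the background limit.

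Nebl was read by 3 probe sets and Kcnk1 by 2, and the other 7 genes by 1 each. For Nebl only 1438452_at moved as described. Nebl has several annotated starts, and which of its forms this probe set reads was not tested. The probe set 1439897_at read 3.12 to 3.44 at dose 0 and 3.09 to 3.46 at 150 in males on day 7, and 1451846_at read 2.59 to 2.80 and 2.85 to 3.04, all below the background limit. The single call among them was 1451846_at in males on day 2 at 75, by 0.30 with an adjusted p of 0.0366 over all probe sets, between levels that both lay below the limit. Averaged over all 3 probe sets the difference of Nebl at 150 in males on day 7 was 1.13. The second probe set of Kcnk1, 1455896_a_at, was higher at 150 by 1.63 in males on day 7 and followed the first with r = 0.879 over the 96 arrays, which share the groups and their doses.

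**Figure D3:**
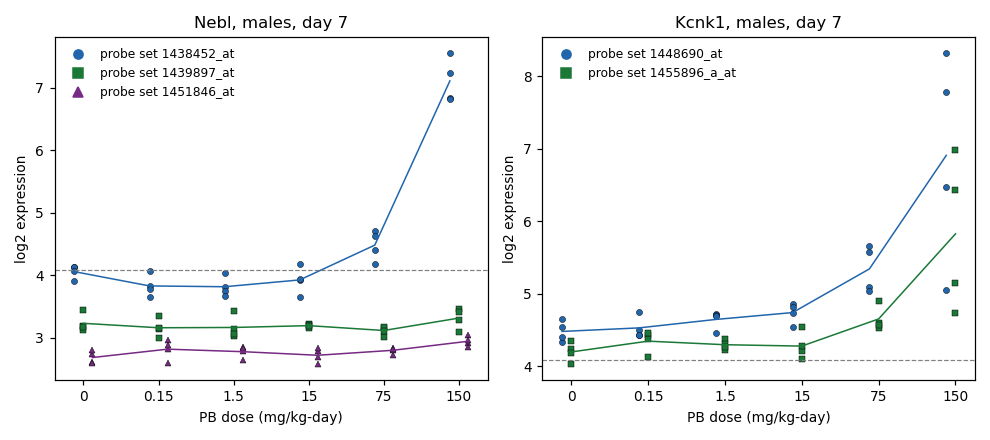
Log2 expression of each probe set of Nebl (left) and Kcnk1 (right) in males on day 7 against PB dose in mg/kg-day (evenly spaced categories). Points are the 4 arrays of a group, lines join the means, and the dashed line is the background limit of 4.09. A single probe set of Nebl leaves the background, whereas both probe sets of Kcnk1 are higher at 150.

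Of the enzyme relatives Pnliprp1 and Moxd1, only the former was called at 75. Pnliprp1 (chr19:58728887-58744169) rose at 75 in 3 of the 4 series. In females on day 7 it read 5.73, 5.78, 5.95 and 6.86 at 75, above every low-dose array (lowest 4.06, median 4.28, highest 4.36), and rose by 1.82 ± 0.22 (SE), or 3.54-fold (adjusted p 1.41e-08). Males at 75 on day 7 read 6.54, 6.03, 6.12 and 5.88 and the rise was 1.79 ± 0.22 (3.45-fold, adjusted p 2.14e-08). The difference between the sexes in this response was -0.04 ± 0.31 (males minus females, adjusted p 0.998).

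On day 2 the difference in response between the sexes was 1.19 ± 0.31 for Pnliprp1, larger in males, and it was not called (adjusted p 0.522). In males it read 4.50, 5.60, 6.62 and 5.70 at 75, a rise of 1.33 ± 0.22 (adjusted p 7.37e-05), and the low value was that of replicate 1, the array that went against its label. Without both such arrays the rise was 1.70 ± 0.21 (adjusted p 1.37e-08) and the difference between the sexes was called, at 1.55 ± 0.28 (adjusted p 0.00459). In females it read 4.803, 4.728, 4.094 and 4.474, which overlapped the low doses (difference 0.15 ± 0.22, adjusted p 0.849). The day 7 response of females exceeded their day 2 response by 1.68 ± 0.31 (SE, adjusted p 0.0159), the only difference between days that passed the test among the 9 genes, against 0.0055% of all genes. The share is 1 gene of 18193, which is Pnliprp1 itself. That call was lost without replicate 3 (adjusted p 0.232) or 4 (0.0672) of day 2 at 75, without replicate 4 of day 7 at 75 (0.133) and with dose 0 (0.822) or 0.15 alone (0.33) as reference. At 150 on day 7, Pnliprp1 read 7.332, 7.995, 6.784 and 7.435 in females and 8.23, 7.91, 8.22 and 6.60 in males. Replicate 4 of those males was lower than the other 3 and still above every control.

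Moxd1 (chr10:24223517-24302783) was, like Smpx, high only in males at 150 on day 7 among the group means. It read 6.12, 8.14, 5.19 and 5.65 there, against 3.24, 3.31, 3.69 and 3.54 at dose 0. The difference of at least 2.83 came with an SD of 1.299, and replicate 2 was the highest array. At 75 in the same series it read 3.74, 3.82, 4.04 and 4.76, all above the low doses (lowest 2.996, median 3.392, highest 3.573), but 3 of the 4 were below the background limit and the difference of 0.71 ± 0.19 (SE) did not pass the test (adjusted p 0.075). That SE includes the spread of the arrays at 150. In females at 150 on day 7 the difference from dose 0 was 0.12, with both means below the limit.

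The channel gene Kcnk1 and the non-coding Gm10419 shared a profile over the groups. Gm10419 (chr5:108367937-108374483) read 8.09, 6.23, 7.63 and 7.03 in males at 150 on day 7, against 4.13, 3.93, 4.00 and 4.12 at dose 0. At 75 it read 5.772, 4.758, 4.596 and 6.22 and rose by at least 1.40 ± 0.20 (SE), or 2.65-fold (adjusted p 8.61e-07). Every array at 75 lay above the low doses (highest 4.22). On day 2 in males it was higher at 150 (5.29, 5.18, 4.56 and 6.63, against 3.70, 3.87, 4.00 and 3.97 at dose 0) and not called at 75 (difference 0.11 ± 0.20, adjusted p 0.944).

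In females Gm10419 barely left the background. At 150 on day 7 it read 4.27, 4.45, 4.66 and 4.18, above the 4 controls (3.78 to 4.06) by at least 0.42, and at 75 the difference from the low doses was 0.09 ± 0.20 (adjusted p 0.936). The response of males at 75 on day 7 exceeded that of females by 1.31 ± 0.28 (SE), and the adjusted p of 0.0587 missed the threshold. It was under the threshold in 3 of the fits that leave out 1 array each (without replicate 1 of males at 1.5, and without replicate 2 or 3 of males at 75; adjusted p 0.00336 to 0.048) and without both arrays that went against their labels (0.0481).

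Kcnk1 (chr8:125993655-126030685) read 6.47, 7.79, 5.05 and 8.32 in males at 150 on day 7, a spread of over 3 log2 units between treated arrays, against 4.65, 4.34, 4.54 and 4.40 at dose 0. Replicates 4 and 2 were high, and replicate 3 stood only just above the controls. At 75 it read 5.10, 5.66, 5.03 and 5.58, all above the low doses (highest 4.75), but the difference of 0.76 ± 0.21 (SE) did not pass the test (adjusted p 0.111). The wide spread at 150 is part of that SE. At 150 on day 2 males read 5.002, 5.215, 6.085 and 4.993, against 4.48, 4.39, 4.56 and 4.68. In females the differences from dose 0 at 150 were 0.18 on day 2 and 0.04 on day 7, with overlapping arrays.

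The spermatogenesis gene Meig1 (chr2:3409043-3422648) rose in males on both days. On day 2 it read 3.23, 4.71, 4.88 and 4.12 at 75, against a highest low-dose array of 3.33. The low array was again replicate 1. The rise was at least 1.03 ± 0.19 (SE, adjusted p 0.00051), and 1.37 ± 0.19 (adjusted p 3.62e-07) without both arrays that went against their labels. It was lost without replicate 3 at 75 (adjusted p 0.0727). On day 7 Meig1 read 4.18, 4.61, 3.71 and 4.12 at 75, a rise of at least 0.83 ± 0.19 (adjusted p 0.0171), which was lost without replicate 1 (0.0779), 2 (0.237) or 4 (0.0614) at that dose and against 0.15 alone (0.0538). In a fit to the arrays of that sex and day only, the adjusted p was 0.099 on day 2 and 0.0605 on day 7. At 150 it read 4.62, 4.34, 4.71 and 6.22 on day 2 and 6.68, 5.51, 5.12 and 5.68 on day 7, far above dose 0 (highest 3.22 and 3.33). In females Meig1 stayed under the background limit in every group, with means of 3.80 at 150 and 3.12 at 0 on day 7, so that no fold is given.

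Cnmd (chr14:79637682-79662194) was the gene with an unadjusted p under 0.05 at dose 15 against the low doses in all 4 series. At that dose its differences from the low doses were 1.09 and 1.45 in females on days 2 and 7, and 1.85 and 1.42 in males, each with an SE of 0.52 and none passing the adjusted test (adjusted p 0.72, 1, 0.64 and 0.999). Against dose 0 the differences at 15 were 1.69 and 0.45 in females on days 2 and 7, and 2.56 and 2.17 in males. Limma's unadjusted p was 0.00617, 0.454, 5.76e-05 and 0.000528, and none passed after adjustment (0.955, 0.981, 0.116 and 0.369). The male arrays at 15 on day 2 read 9.57, 8.09, 8.31 and 7.60 and lay above all low-dose arrays (highest 7.58), which was true of 0.209% of all genes. The highest of them was replicate 1, and without both arrays that went against their labels the difference was 1.46 ± 0.56 (adjusted p 1).

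At 75 Cnmd rose in both sexes on day 7 and in females on day 2. It read 8.75, 10.03, 9.31 and 9.78 in females on day 2, a rise of 2.52 ± 0.52 (SE), or 5.75-fold (adjusted p 0.00197). On day 7 the females read 9.762, 10.10, 9.742 and 9.205 and the males 9.245, 9.863, 9.095 and 9.604, all above the low doses. The rise was 3.04 ± 0.52 in females (8.23-fold, adjusted p 0.000122) and 2.89 ± 0.52 in males (7.40-fold, adjusted p 0.000354). The female call on day 7 was lost against dose 0 (difference 2.05, adjusted p 0.0775) and against 0.15 alone (2.25, adjusted p 0.0957). The difference of 1.87 in males on day 2 was not called (adjusted p 0.0919), and it was 2.34 ± 0.56 and called without both arrays that went against their labels (adjusted p 0.0155), as it was against dose 0 (2.57, adjusted p 0.019). As a share of the difference at 150 from dose 0, the difference of Cnmd at 75 was 102% in females on day 2, 89.2% in females on day 7, 98.1% in males on day 7 and 72% in males on day 2 (85.1% without both arrays).

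Cnmd also had the largest SD of the 9 genes in each dose 0 group. The 4 female arrays at dose 0 on day 2 read 7.83, 7.34, 6.42 and 3.77, and the 4 male arrays on day 7 read 6.45, 7.51, 4.77 and 4.49. Single arrays thus ranged from below or near the background limit to above 7 within a group, and at 150 the 4 groups were narrow, with SDs of 0.32 to 0.60.

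Prom1 (chr5:43993621-44102047) differed between the sexes at the low doses. It was lower in males by 3.28 ± 0.33 (SE) on both days, or 9.70-fold and 9.72-fold (adjusted p 2.12e-12 and 1.77e-12). Among the 9 genes it alone differed between the sexes there, 1 of 9 on each day against 9.47% and 13.3% of all genes in either direction. Its 8 low-dose arrays on day 7 ran from 7.59 to 9.08 in females (median 8.52) and from 4.76 to 5.51 in males (median 5.18), without overlap.

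In males Prom1 rose at 75. On day 7 it read 8.23, 8.11, 7.61 and 7.45, a rise of 2.69 ± 0.41 (SE), or 6.45-fold (adjusted p 9.53e-06), which overlapped the lower end of the low-dose females. On day 2 it read 6.43, 9.18, 9.95 and 8.38, a rise of 2.51 ± 0.41 (adjusted p 5.24e-05). The lowest was replicate 1, and at dose 15 replicate 1 read 8.59 against 5.15, 6.09 and 5.42 for the others. Without both arrays the rise at 75 was 3.195 ± 0.37 (adjusted p 1.14e-09). In females the differences at 75 were 0.59 on day 2 (adjusted p 0.573) and 1.13 on day 7 (adjusted p 0.259), the latter with no overlap with the low doses. The female difference on day 7 was called in a fit to the arrays of that sex and day only (adjusted p 0.0101). Against dose 0 it was smaller, at 0.66, and not called (limma, adjusted p 0.663). At 150 on day 7 the females read 10.53, 10.69, 10.83 and 10.53 and the males 9.49, 9.99, 8.61 and 6.60. The male arrays remained below the female ones, and replicate 4 was low, as it was for Pnliprp1 and Smpx, while it was the highest for Kcnk1.

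**Figure D4:**
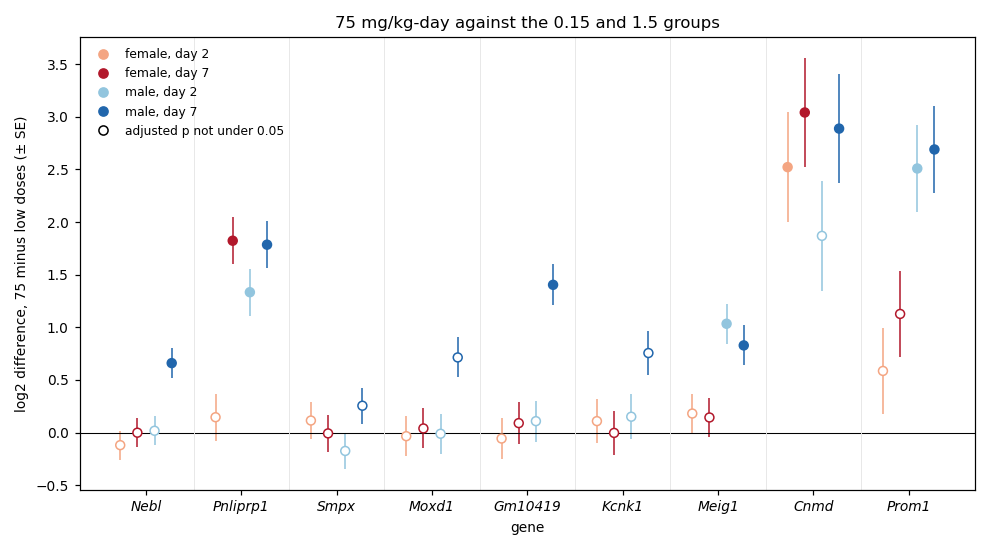
Log2 difference between dose 75 and the low doses (y axis) for each of the 9 genes (x axis), with bars for limma's SE and colours for sex and day, all arrays kept. Filled points passed an adjusted p of 0.05. The series with most filled points is males on day 7, and Cnmd and Pnliprp1 are the 2 genes with a filled point in females.

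The difference in response between the sexes was tested directly at 75. On day 2 none of the 9 genes passed in limma's test, as none of the 18193 did (0%), and Pnliprp1, Meig1 and Prom1 had an unadjusted p under 0.05. Without both arrays that went against their labels these 3 were called, with a larger response in males by 1.55 ± 0.28 (SE) for Pnliprp1, 1.19 ± 0.25 for Meig1 and 2.61 ± 0.49 for Prom1 (adjusted p 0.00459, 0.0339 and 0.00712). They were then 3 of 9, against 0.0385% of all genes in either direction, which is 7 genes with these 3 among them. On day 7 none passed (0.011% of all genes), and 6 had an unadjusted p under 0.05, namely Nebl, Moxd1, Gm10419, Kcnk1, Meig1 and Prom1, each with the larger response in males. In males none of the 9 differed between the days after adjustment (0.0055% of all genes), and Nebl, Moxd1, Gm10419 and Kcnk1 had an unadjusted p under 0.05 with the larger response on day 7. Without both arrays Meig1 had one too, with the larger response on day 2 (difference -0.54).

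Complete separation at 75 gave a count of another kind. Among males on day 7 all genes but Smpx, 8 of 9, had their 4 arrays above all 8 low-dose arrays, against 0.764% of all genes. In females 3 did on day 7 (Pnliprp1, Cnmd and Prom1; 0.616%) and 1 on day 2 (Cnmd; 1.21%). Among males on day 2 none did (0.819%), and 4 did without replicate 1 at 75 (Pnliprp1, Meig1, Cnmd and Prom1; 1.62%).

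How much of the difference at 150 from dose 0 had been reached at 75 is given, as a description, for the 4 genes that started above background. Pnliprp1 and Kcnk1 started only just above the limit, so their shares are less certain. In males on day 7 the shares were 98.1% for Cnmd, 75.7% for Prom1, 54.7% for Pnliprp1 and 35.5% for Kcnk1. In males on day 2 the difference was larger at 75 than at 150 for Prom1 (2.73 and 2.33, a share of 117%) and Pnliprp1 (1.185 and 0.812). Replicate 1 at 75, which went against its label, is included there. In females on days 2 and 7 the shares were 70.5% and 38.1% for Prom1 and 34.3% and 59.1% for Pnliprp1. For the 5 genes that started at background, the difference from dose 0 is a lower bound, and no share is given.

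The genes were alike in their group means and less so from array to array. Over the 24 group means Pearson's r ran from 0.03 to 0.97 over the 36 pairs, with a median of 0.73. It was highest for Smpx with Moxd1 (0.973) and for Gm10419 with Kcnk1 (0.972). Smpx and Moxd1 had a high mean only in males at 150 on day 7, so their r rested largely on that group. Prom1 was the least like the others. These values share the doses and rest on the groups that chose the genes. Without both arrays that went against their labels, the range was 0.02 to 0.97 with a median of 0.72. Deviations of the 96 arrays from their group means gave r of -0.37 to 0.52, with a median of 0.12, and those of the 94 arrays without both gave -0.37 to 0.64, with a median of 0.07. Pnliprp1 with Prom1 (0.518), Nebl with Gm10419 (0.513) and Nebl with Meig1 (0.510) were highest with all arrays. Over the 94 arrays these 3 pairs were at 0.29, 0.54 and 0.642, so the value for Pnliprp1 with Prom1 rested largely on those 2 arrays. Gm10419 with Kcnk1, so alike in their means, was lowest with and without them (-0.37). Without the males at 150 on day 7 it was -0.21 over 92 arrays. In males at 150 on day 7, Nebl, Pnliprp1, Smpx, Gm10419 and Meig1 were highest on the same array. Moxd1, Kcnk1 and Prom1 were highest on other arrays of that group.

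By Pearson's r with the mean profile of the 9 genes over the 24 group means, the 6 genes outside the set most like it were Rsad2 (0.926), Fam171a1 (0.911), Rnf213 (0.885), Cyp2c65 (0.88), Cmpk2 (0.878) and Oasl1 (0.878). Without both arrays that went against their labels the first 6 were the same genes, with r of 0.862 to 0.918. Rsad2, Rnf213, Cmpk2 and Oasl1 are known as genes induced by interferon, and Cyp2c65 encodes a P450 enzyme. The difference between 150 and 0 in males on day 7 was 1.97 for Rsad2 (adjusted p 3.84e-05), 1.72 for Fam171a1 (3.56e-14) and at least 6.72 for Cyp2c65 (4.01e-21), which also started at background. They were picked for a likeness that includes this contrast, so these values describe them.

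Markers of the tissues in which the genes are best known were set beside them at 150 against 0. In either direction, 5.46% and 2.45% of all genes were called in females on days 2 and 7, and 4.9% and 3.04% in males. In lists of so few genes, no call or a single call is near these shares. Of 28 measured genes of striated muscle, none was called in limma's test in males on day 7 (1 at an unadjusted p under 0.05), with 3.04% of all genes called in either direction. Their mean level per array ran from 4.99 to 5.13 at dose 0 and from 4.99 to 5.16 at dose 150. At dose 0, 7 of the 28 were at background, among them Myh2, Myh4, Myh7 and Tnni3. In females none was called (3 on day 2 and 6 on day 7 at an unadjusted p under 0.05), with 5.46% and 2.45% of all genes called. The single rise was that of Csrp3 in males on day 2, by 0.56 (adjusted p 0.0182, with 4.9% of all genes called), and it was not called without replicate 1 at dose 0 or replicate 4 at 150. In males on day 7, Nebl and Smpx were higher at 150 on arrays whose mean over the muscle markers overlapped the controls. That mean includes genes at background and may miss a small change, and the cause of the rise was not tested.

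The exocrine pancreas list had 17 measured genes and ran from 5.32 to 5.51 at dose 0 and from 5.29 to 5.48 at 150 in males on day 7. Only Spink1, a trypsin inhibitor, rose there, by 0.52 (adjusted p 0.0305), and it was not called without replicate 1, 3 or 4 at dose 0 or replicate 2 at 150. The elastase gene Cela1 fell in females by 0.81 on day 2 and 0.80 on day 7 (adjusted p 0.000297 and 0.000932), with 5.46% and 2.45% of all genes called. Pnliprp2, a relative of Pnliprp1, differed by 0.10 in males on day 7 (adjusted p 0.805).

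None of 20 cartilage and tendon genes was called in any series, against 2.45% to 5.46% of all genes called in either direction. In males on day 7, 3 had an unadjusted p under 0.05, and 8 of the 20 were at background at dose 0. The list ran from 4.42 to 4.67 at dose 0 and from 4.42 to 4.58 at 150 in males on day 7. Tnmd, the relative of Cnmd, stayed at background. Of 21 genes of sperm and the axoneme none rose, and Dnaic1, a dynein chain of cilia, fell in all 4 series, with differences of -2.26 and -1.63 in females on days 2 and 7 and of -1.75 and -1.94 in males (adjusted p 0.000406, 0.0393, 0.0135 and 0.00655). The call was lost without replicate 1 or 4 at dose 0 or 1, 2 or 4 at 150 in females on day 7, without replicate 1 or 4 at dose 0 in males on day 2, and without replicate 3 at dose 0 in males on day 7. Dnah5, another dynein chain, differed by -0.38 in females on day 2 (adjusted p 0.0495), and without any single one of 6 arrays (replicates 2, 3 and 4 at dose 0 and 1, 2 and 3 at 150) only 1 of the list was called there. At dose 0, 9 of the 21 were at background.

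Of 17 markers of cholangiocytes and progenitor cells, the setting in which Prom1 is a marker, none was called in males on day 7 (3 at an unadjusted p under 0.05). The share of all genes called there was 3.04%. Krt19 differed by -0.20, Epcam by -0.11 and Sox9 by -0.14, and the list ran from 5.75 to 5.98 at dose 0 and from 5.80 to 5.99 at 150. The water channel Aqp1 fell in females on day 2 by 0.45 (adjusted p 0.00167). Among 23 relatives of the 9 genes, none was called in males on day 7 (0 at an unadjusted p under 0.05), against 3.04% of all genes. The relatives included 11 other channels of the Kcnk family. In females on day 2 Lpl, a lipase, differed by 1.16 (adjusted p 0.0204) and Neb, the large relative of Nebl, by -0.92 (0.0309), and in males on day 2 Kcnk6 by -0.35 (0.038). Each of these 3 calls was lost when any single one of 5 arrays was left out.

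The liver itself read as liver: Alb lay between 14.70 and 14.90 and Hnf4a between 12.17 and 12.89 on all 96 arrays. Of 16 hepatocyte genes none was called in males on day 7 (6 at an unadjusted p under 0.05), while 2 fell in females on day 2, 1 in females on day 7 and 4 in males on day 2, by at most 0.21, against 5.46%, 2.45% and 4.9% of all genes called in either direction. In contrast, of 25 targets of CAR and the related receptor PXR, 18 rose and none fell in males on day 7, with a median of 1.29, against 2.2% of all genes called higher. In females on day 2, 18 rose (3.32% of all genes), and 19 rose in females on day 7 (1.52%) and in males on day 2 (2.5%), with medians of 1.23 to 1.38. The list was known to respond on these arrays. In whole tissue, more cells that express a gene and more RNA per cell cannot be told apart.

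**Figure D5:**
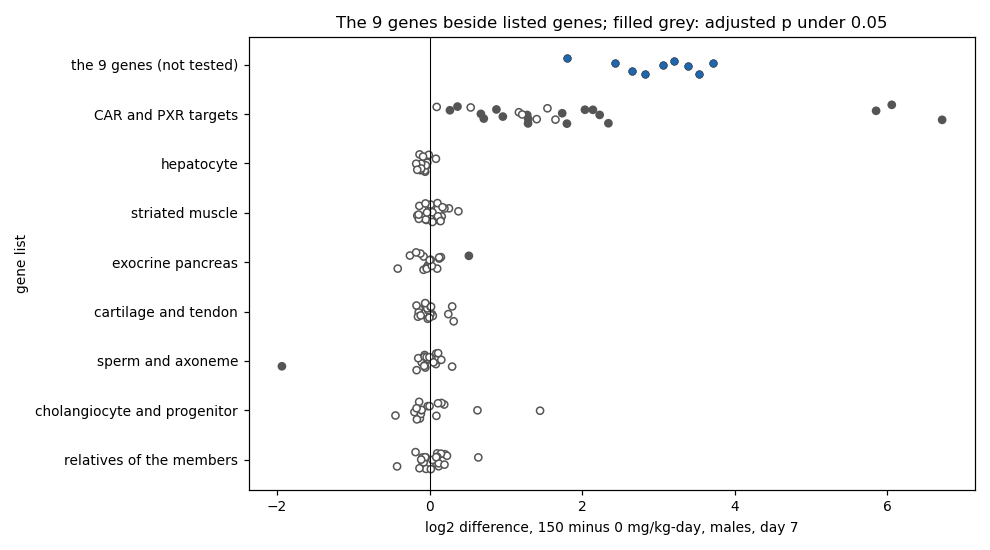
Log2 difference between doses 150 and 0 in males on day 7 (x axis) for the 9 genes (blue, chosen on this contrast and not tested) and for the measured genes of 8 lists (y axis, points spread vertically for legibility). Filled grey points passed an adjusted p of 0.05. The 9 genes lie between 1.81 and 3.72, among the targets of CAR and PXR, while the tissue lists lie around 0 with single exceptions.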

How the data were processed

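Values were used as the authors deposited them: log2 intensities, already normalized between arrays (medians 5.34 to 5.44), by a method not given in the sources used here. Per the labels' protocols, 4 μg of liver RNA extracted with Trizol was amplified and biotin-labelled. Of 45101 probe sets, 34945 had 1 gene symbol and were used. Those with several symbols (932) or none (9160) and the maker's 64 controls were left out of the gene tests. The probe set with the highest mean stood for a gene (18193 genes), and every probe set of the 9 genes was examined. A mean per group was fitted to the 96 arrays with limma 3.58.1 (R 4.3.3), with 72 residual and 4.39 prior degrees of freedom, two-sided tests and Benjamini-Hochberg adjustment over all genes. The fit was tested on simulated data. Tables were read with data.table, version 1.17.8, and figures drawn with matplotlib 3.10.9 and pandas 2.3.3. Arrays give no counts, so the number of arrays limits precision. No 2 arrays were identical.

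The 9 genes and the gene lists were chosen with earlier results of these data known. The genes named are the 9, the 6 genes outside them with the highest r, and members of lists that were called or are relatives of the 9; Krt19, Epcam and Sox9 were named after their values were seen. The replicate numbers showed little pairing of the arrays over all genes (mean r of same-numbered arrays -0.00 to 0.04), so no block was used. A mean over all genes cannot exclude a pairing that affects some of them. Alternatives were another reference dose, centring, quantile normalization, a filter on dim genes, other probe set rules, another variance model, other arrays in the fit, a replicate block and leaving out each array. Leaving out both arrays that went against their labels was chosen after seeing the data.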

Additional observations from a re-analysis of the deposited data

Results flagged for a closer look

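Of 216 sets of 4 arrays (9 genes in 24 groups), 15 had an array far from the other 3 by Dixon's ratio, and chance gives about 1 in 20. Males on day 2 held 6 of them. At dose 15, replicate 1 stood apart for Pnliprp1 (5.50, high), Meig1 (3.74, high) and Moxd1 (2.98, low), and this is 1 of the arrays that went against its label for Cyp2b10. At 150, Nebl was high on replicate 4 (5.72) and Smpx low on replicate 3 (2.92). At dose 0, Prom1 was high on replicate 2 (6.81).

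In males on day 7, Kcnk1 was low on replicate 2 at dose 1.5 (4.46). In females on day 2, Nebl was low on replicate 1 at 0.15 (3.61), Meig1 was high on replicate 2 at 15 (3.41) and Prom1 was low on replicate 1 at 150 (9.11). In females on day 7, Gm10419 was low on replicate 2 at dose 0 (3.78), Prom1 on replicate 2 at 0.15 (7.84), Kcnk1 on replicate 2 at 75 (4.23) and Nebl on replicate 2 at 150 (5.24), and Cnmd was high on replicate 1 at 150 (10.43). The values of Smpx, Moxd1, Gm10419 and Meig1 named here, and that of Nebl at 0.15, lie below the background limit.

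The response of Pnliprp1 at 75 differed between the days in females by 1.68 (day 7 minus day 2, limma's interaction term).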

How the results depend on the processing

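The number of genes called higher at 75 in females on day 7 was 1 with dose 0 as reference, 1 with 0.15 alone and 1 with dim genes left out, in place of 2. With dim genes left out, only Cnmd and Prom1 of the 9 were still tested, among 9096 genes, and the number was 1 in males on day 2 and 2 in males on day 7. Without both arrays that went against their labels, the number of genes whose response differed between the sexes was 3 on day 2 and 1 on day 7. The number that differed between the days in females was 0 with dose 0 as reference, 0 with 0.15 alone and 0 with dim genes left out. The number that differed between the sexes at the reference dose on day 7 was 2 with dose 0, Cnmd and Prom1.

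With the replicate block, Gm10419 was called for the sexes on day 7 and for the days in males, so that each count was 1 in place of 0. The replicate numbers showed little pairing of the arrays over all genes, and a block changed no other count by over 1.5 times.

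Leaving out each array in turn gave 2 to 4 genes called higher at 75 in males on day 2, 4 to 6 in males on day 7, 1 in females on day 2 and 2 in females on day 7. It gave 0 to 3 for the sexes on day 2, 0 to 1 for the sexes on day 7, and 0 to 1 for the days in each sex. At 15 it gave 0 throughout, and for the sexes at the low doses 1. The difference of Cnmd between the sexes at the low doses on day 7, never past the threshold at these doses, changed from -0.10 to 0.15 and 0.04 without replicates 1 and 4 of females at 1.5, and to 0.19 without replicate 2 of males at 0.15, over a range of -0.33 to 0.19. Centring, quantile normalization and the other settings kept each count within 1.5 times. The causes of these changes were not tested, apart from the smaller set of genes left by the filter on dim genes.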
